A study of Arabidopsis thaliana with 12 samples.

Results

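The comparison set seedlings of the Arabidopsis thaliana line flu1-5 ex1 that were returned to light for 1 h after 4 h of darkness against seedlings of the same line that were held in darkness for 4 h. It used 6 of the 12 RNA-seq libraries of the series, 3 for each condition, and covered all 27655 genes of the deposited table. In the light group (flu1-5 ex1, 4 h dark then 1 h light) and in the dark group (flu1-5 ex1, 4 h dark) the seedlings were 6 days old, had grown in continuous light at 22 °C and carried 2 mutations, the flu1-5 allele of FLU and ex1, a mutation of EXECUTER1. All libraries shared 2 days of stratification, a cold treatment of seeds, at 4 °C. About 100 seedlings went into each replicate, per the file headers. The other 6 libraries come from flu1-1 ex1, with another flu allele, under the same conditions, and served for a test of whether the light responses differed. By the labels no group carried normal FLU or EXECUTER1 genes, and none stayed in darkness for the additional 1 h. Singlet oxygen, the light and the hour that passed therefore cannot be told apart as sources of a change. Every library carries the genotype label flu1-1/ex1, whereas titles, descriptions and the design text separate the lines, and the grouping here follows the descriptions. Nothing states that replicates were grown apart, so the spread behind the p-values may be technical.

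FLU is a chloroplast protein that holds back chlorophyll synthesis in darkness. Where it is lost, the precursor protochlorophyllide accumulates in the dark, and on return to light this pigment passes energy to oxygen and forms singlet oxygen, a reactive form of oxygen. EXECUTER1, also in the chloroplast, mediates a large share of the known gene responses to singlet oxygen in flu seedlings. Cells also use chaperones, autophagy and hormone pathways in stress and at the change between night and day.

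Short stretches of DNA upstream of genes are shown first, because heat shock and ribosomal genes, among those that rose below, are known for such elements. Windows of 250 bases before the annotated gene start were read from the RefSeq genome TAIR10.1 by locus identifier for 18012 of the 18145 genes tested. The submitters' processing notes name TAIR10, and no coordinate was taken from the deposited table. The heat shock element, to which heat shock factors bind, was searched on both strands as GAA, TTC and GAA in a row, parted by 2 bases of any kind. Of the 15 genes with the largest rises named below, 5 had a match, as did 1 of the 15 with the largest falls, against 76 of all 18012 windows (0.422%). Those 5 are shown with every match within the 60 printed bases in capitals, in the direction of the gene, 5′ to 3′.

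DIP2 (AT5G03210), chr5:763481-763540, minus strand: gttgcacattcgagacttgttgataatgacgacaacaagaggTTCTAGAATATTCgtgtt
HSP17.4 (AT3G46230), chr3:16984868-16984927, minus strand: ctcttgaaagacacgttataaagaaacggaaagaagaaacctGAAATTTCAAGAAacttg
AT1G71000, chr1:26770268-26770327, minus strand: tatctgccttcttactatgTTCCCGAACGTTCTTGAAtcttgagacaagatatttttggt
AT1G53540, chr1:19980222-19980281, plus strand: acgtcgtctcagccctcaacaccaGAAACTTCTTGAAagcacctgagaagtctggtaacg
HSFA2 (AT2G26150), chr2:11135512-11135571, plus strand: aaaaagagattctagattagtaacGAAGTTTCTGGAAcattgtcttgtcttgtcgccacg

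The share with this element was 6 of 72 windows (8.33%) among genes called at least 16-fold higher in light, 17 of 1810 (0.939%) among those at least 2-fold higher and 2 of 920 (0.217%) among those at least 2-fold lower. By list, it stood in 2 of 23 windows of cytosolic chaperone genes (8.7%) and 0 of 30 of organelle chaperone and protease genes. It also stood in 2 of 22 windows of heat shock factors and co-regulators (9.09%) and 3 of 36 of C2H2, ERF and DREB factors (8.33%). The telo box, searched as AAACCCTA and TAGGGTTT, is known from promoters of plant ribosomal protein genes. It stood in 5 of 24 windows of the ribosome biogenesis genes tested (20.8%) and 18 of 98 windows of ribosomal protein genes (18.4%), against 645 of 18012 (3.58%). Among genes at least 2-fold higher it stood in 54 of 1810 windows (2.98%), and among those at least 2-fold lower in 17 of 920 (1.85%). The telo box is shown in capitals for the 2 of the 8 named rises of the ribosome lists that held it.

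AT5G59240, chr5:23903768-23903827, minus strand: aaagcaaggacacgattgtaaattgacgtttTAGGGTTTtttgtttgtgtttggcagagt
AT1G29965, chr1:10499463-10499522, minus strand: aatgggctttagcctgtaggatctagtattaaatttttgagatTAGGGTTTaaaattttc

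The W box (TTGACC or TTGACT and their reverse complements), bound by WRKY factors, stood in 12 of 22 windows of WRKY genes (54.5%) and 21 of 36 of pattern-triggered immunity genes (58.3%), against 5014 of 18012 (27.8%). Genes at least 16-fold higher held it in 20 of 72 windows (27.8%). For genes at least 2-fold higher it was 574 of 1810 (31.7%), and for those at least 2-fold lower 268 of 920 (29.1%). The G box CACGTG, bound by bZIP and bHLH factors, stood in 14 of the 72 windows of genes at least 16-fold higher (19.4%), against 1333 of 18012 (7.40%). CGCGTT, a core bound by CAMTA factors, stood in 6 of 40 windows of MAP kinase and calcium genes (15%), against 511 of 18012 (2.84%). It stood in 0 of the 16 named rises of the calcium, C2H2, ERF and DREB, WRKY and immunity lists. Among genes at least 16-fold higher it stood in 5 of 72 windows (6.94%). For genes at least 2-fold higher it was 68 of 1810 (3.76%), and for those at least 2-fold lower 22 of 920 (2.39%). The evening element AAAATATCT stood in 57 of 1810 windows of genes at least 2-fold higher (3.15%) and in 463 of 18012 (2.57%). The dehydration element (ACCGAC or GCCGAC, both strands) stood in 175 of 1810 (9.67%) and in 1433 of 18012 (7.96%). Among genes at least 16-fold higher the evening element stood in 4 of 72 windows (5.56%) and the dehydration element in 10 of 72 (13.9%). These are matches of letters, without a test, and a match is not evidence of binding.

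Each library held between 929954 and 932531 TPM in total and 17773 to 18169 genes at 1 TPM or more. TPM is a relative abundance corrected for transcript length. Read numbers cannot be had from TPM, and the sequencing depth of the libraries is unknown. Across genes, log2 values of libraries of the same condition correlated at Pearson r of 0.9931 to 0.9936 and those of different conditions at 0.8939 to 0.8952. Chloroplast genes made up 1.816, 1.214 and 1.383% of the TPM in light and 1.852 to 2.145% in dark. FLU stood at 17, 14 and 15.4 TPM in light and 13.2, 13.8 and 15.5 TPM in dark (adjusted p = 0.245), and EX1 (AT4G33630), the EXECUTER1 gene, at 86.3, 73.5 and 83.2 TPM in light and 45.3, 44.8 and 45.8 TPM in dark (log2 change 0.82, SE 0.057, limma adjusted p = 2.25e-06). A level of RNA does not show whether the protein is made, so neither value checks the mutant labels. The samples are labelled as seedlings. Summed over 4 leaf mesophyll markers the level was 25427.5 to 26666.4 TPM in light and 28697.7 to 29198.6 TPM in dark, and all 4 were called lower in light, or 1 of 4 after quantile normalization. Summed over 9 root and root hair markers it was 6.1 to 8.16 TPM in light and 5.8 to 7.74 TPM in dark. Of these 9 markers, 7 had a mean under 1 TPM, among them the iron transporter gene IRT1, listed at 0 in 4 of the 6 libraries. The other 2 moved in opposite directions, with the phosphate transporter gene PHT1;1 at 4.48 ± 0.403 TPM in light and 2.46 ± 0.52 TPM in dark (log2 change 0.67, limma adjusted p = 0.00136), and CASP2, of the root endodermis, at 0.512 ± 0.195 TPM in light and 2.35 ± 0.0181 TPM in dark (log2 change -1.16, limma adjusted p = 5.68e-05). The part of root RNA in the results was not tested. Over 6 seed storage genes the sum was 8.18 to 11.9 TPM in light and 9.12 to 11.6 TPM in dark. In RNA from seedlings, fewer cells of a type and less RNA per cell cannot be told apart.

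In limma on log2(TPM + 1), 12297 of 18145 genes tested (67.8%) passed an adjusted p of 0.05, the threshold for a call. Of the genes tested, 6973 were higher in light (38.4%) and 5324 lower (29.3%). The counts of each list below are to be read beside these shares. The other 9510 genes had a mean under 1 TPM and were not tested. Most calls were small, and 6720 of the genes called changed by less than 1.5-fold. At least 2-fold, 1811 were higher (9.98%) and 921 lower (5.08%). At least 8-fold, 169 were higher and 41 lower. At least 32-fold, 36 were higher and 0 lower. The median log2 change of all genes tested was 0.05, or -0.067 after quantile normalization, a shift of 0.12. Under that scaling 44.6% of calls were higher instead of 56.7%, with 5649 higher and 7016 lower, so the direction of a small change depends on the scaling. Most of the 241 genes named by rule were taken from genes already called, by the size of their change. Their calls were therefore set by the choice, and their separation was favoured by it. Of the 241, 240 were called. In all 240 the 3 light libraries lay wholly above or wholly below the 3 dark libraries, as they did in 72.1% of all genes tested. The highest adjusted p of the 240 was 0.0262.

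Chaperones dominated the largest rises. By the rule used, the 15 largest rises among called genes at or above the median level of 15.1 TPM included 8 of the 23 cytosolic chaperone genes. HSP101 (AT1G74310), a ring-shaped ATPase that pulls apart protein aggregates, stood at 408, 387 and 377 TPM in light and 3.43, 3.02 and 3.39 TPM in dark (log2 change 6.52, SE 0.052, limma adjusted p = 6.61e-12). HSP90.1 (AT5G52640), the heat-inducible HSP90, stood at 906, 867 and 841 TPM in light and 6.18, 5.5 and 5.64 TPM in dark. The small heat shock genes AT1G07400 and AT1G53540 are both annotated as HSP20-like chaperones. AT1G07400 had 583 ± 8.76 TPM in light and 2.42 ± 0.235 TPM in dark (mean ± SD, n = 3 in each group, here and below), and AT1G53540 had 107 ± 5.9 TPM in light and 0.191 ± 0.191 TPM in dark. ROF2 (AT5G48570), an immunophilin that acts with HSP90, stood at 257, 241 and 247 TPM in light and 3.01, 3 and 2.64 TPM in dark. The dark level of AT1G53540 was under 1 TPM, so its fold on this scale depends on the pseudocount. The 15 largest rises also held 3 genes outside the heat shock lists that are not annotated as chaperones. DIP2 (AT5G03210), annotated as an E3 ubiquitin-protein ligase, stood at 105, 120 and 120 TPM in light and 0, 0.183 and 0.187 TPM in dark. The uncharacterized gene AT1G47130 stood at 228, 242 and 230 TPM in light and 1.56, 1.53 and 1.56 TPM in dark (log2 change 6.52, SE 0.046, limma adjusted p = 4.3e-12). AT5G54165, annotated as an Avr9/Cf-9 rapidly elicited protein, had 131 ± 9.75 TPM in light and 0.556 ± 0.201 TPM in dark.

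**Figure D1:**
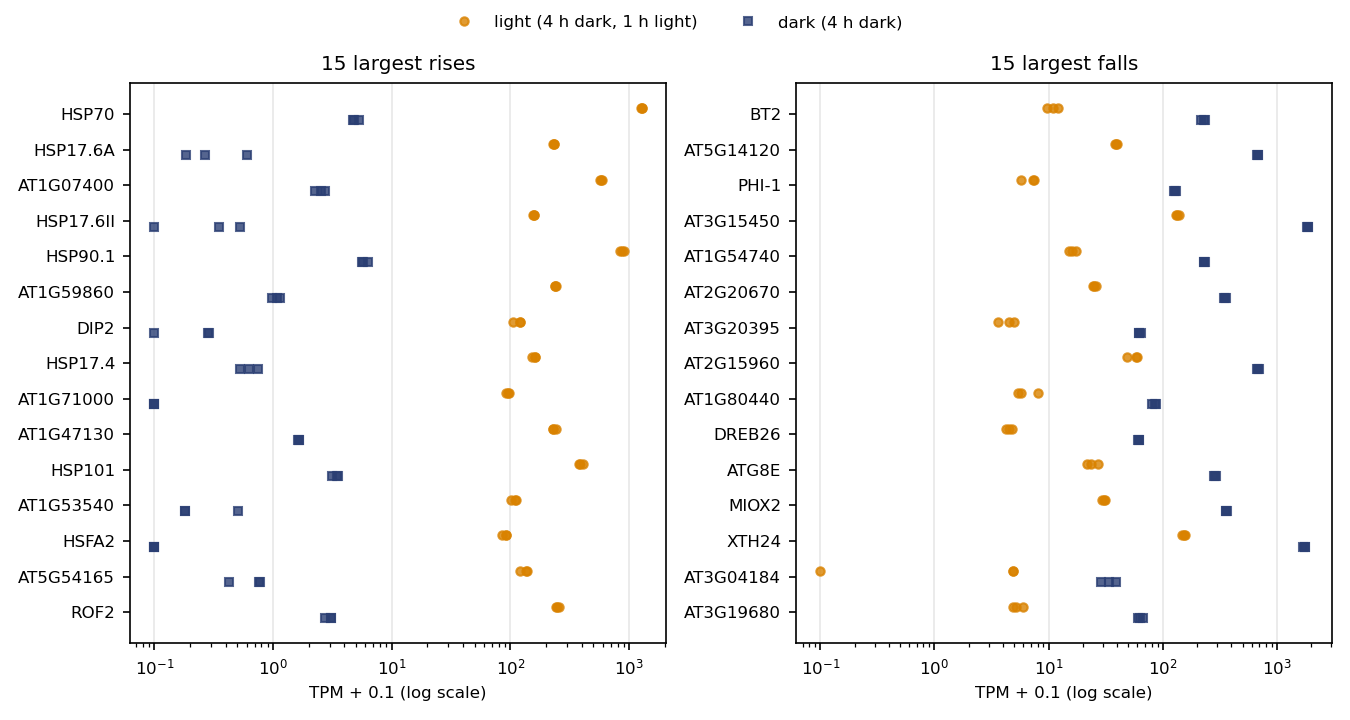
Levels of the 15 genes with the largest rises (left) and the 15 with the largest falls (right) in each library of flu1-5 ex1, as TPM + 0.1 on a log axis, with light libraries as circles above dark libraries as squares. Light and dark libraries are apart for every gene, and the light library at 0 TPM of AT3G04184 is drawn at 0.1.

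All 23 cytosolic chaperone genes were tested and all 23 were called higher, with a median log2 change of 5.10 beside 0.05 for all genes and 38.4% of all genes called higher. The members of this and the other lists were chosen with earlier results of these data known. Their counts and medians may partly reflect that choice. Their summed level was 12685.7, 12563.9 and 12513.1 TPM in light and 1609.3, 1562.2 and 1560.9 TPM in dark. The largest gains in TPM included members that were already well above 1 TPM in dark. HSP70-1 (AT5G02500), a cognate HSP70 of the cytosol, stood at 2627.4, 2549.6 and 2692.2 TPM in light and 980, 964 and 952 TPM in dark. AT3G09440, a close relative of it, stood at 1769.8, 1752.6 and 1762.4 TPM in light and 31.7, 33.3 and 32.5 TPM in dark, while HSP90.2 (AT5G56030) had 1173.2 ± 21.1 TPM in light and 70.2 ± 1.74 TPM in dark. HSP90.3 (AT5G56010), another cytosolic HSP90, had 1096.2 ± 29.7 TPM in light and 57.8 ± 0.648 TPM in dark. The smallest rise was that of HOP1, a co-chaperone linking HSP70 and HSP90, with 61.6 ± 1.71 TPM in light and 51.8 ± 1.32 TPM in dark. Genes of these families share sequence, and reads may be divided between copies.

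Of 24 heat shock factors and co-regulators, 22 were tested, of which 15 were higher and 1 lower, or 14 and 3 after quantile normalization. MBF1C (AT3G24500), a transcriptional co-activator of the heat response, stood at 304, 316 and 309 TPM in light and 6.13, 5.69 and 4.82 TPM in dark (log2 change 5.57, SE 0.069, limma adjusted p = 7.99e-11). BAG6 (AT2G46240), a co-chaperone, stood at 109, 101 and 102 TPM in light and 3.3, 2.92 and 3.44 TPM in dark. HSFA2 (AT2G26150), the factor that sustains the heat response, stood at 92.4, 91.4 and 84.4 TPM in light and 0, 0 and 0 TPM in dark. HSFA5 (AT4G13980) was the member called lower, with 7.43 ± 0.209 TPM in light and 14.7 ± 0.446 TPM in dark. Chaperones and proteases of organelles were mixed, with 21 of 30 tested higher and 5 lower. The mitochondrial small heat shock gene HSP23.6 (AT4G25200) stood at 59.4, 60.3 and 61.2 TPM in light and 0.201, 0.132 and 0.132 TPM in dark and the mitochondrial HSP70 gene MTHSC70-2 (AT5G09590) at 270, 261 and 265 TPM in light and 22.4, 21.2 and 21.7 TPM in dark. Chloroplast members went both ways. HSP21 (AT4G27670), the chloroplast small heat shock gene, stood at 6.77, 7.48 and 5.51 TPM in light and 0, 0 and 0 TPM in dark. The Clp ATPase gene CLPD (AT5G51070) fell to 161 ± 5.65 TPM in light, against 263 ± 3.28 TPM in dark, and the chaperonin subunit CPN60B (AT1G55490) to 440 ± 6.31 TPM in light, against 554 ± 11.1 TPM in dark. Proteasome subunit genes changed little. Of 27 tested, 10 were higher and 2 lower, beside 38.4% and 29.3% of all genes tested. The range was -0.17 to 0.92 on the log2 scale. The median of 0.08 became -0.02 after quantile normalization, with 5 higher and 6 lower. RPN6 (AT1G29150), a lid subunit, rose most, with 93.6, 93.9 and 89 TPM in light and 48, 48.8 and 48.3 TPM in dark.

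Genes that build ribosomes rose together. Of 24 ribosome biogenesis genes, all tested, 21 were higher, 2 lower and 1 not called, and the median log2 change was 1.00. FIB2 (AT4G25630), a fibrillarin that methylates ribosomal RNA, stood at 86.8, 93.7 and 85.6 TPM in light and 34.6, 32.8 and 34.9 TPM in dark (log2 change 1.35, SE 0.046, limma adjusted p = 2.08e-08). AT3G15460, a Brix domain protein of ribosomal RNA processing, stood at 24.5, 26.4 and 25.1 TPM in light and 7.43, 7.35 and 8.28 TPM in dark. OLI2 (AT5G55920) and RID2 (AT5G57280) are methyltransferase-like proteins needed for ribosome formation. OLI2 had 57.7 ± 1.03 TPM in light and 23.5 ± 1.07 TPM in dark, and RID2 had 45.4 ± 2.14 TPM in light and 17.2 ± 1.94 TPM in dark. DIM1A (AT2G47420), a dimethylase of ribosomal RNA, fell to 51.2 ± 2.18 TPM in light, against 75.1 ± 4.98 TPM in dark. Summed over the list the level was 2067.4, 2116.3 and 2051.4 TPM in light and 1240.9, 1207.6 and 1188.3 TPM in dark. The ribosomal protein genes, taken as 102 genes whose product names give a family of the eukaryotic ribosome, had a smaller median. Membership rests on the product name alone, and whether each gene encodes a subunit of the cytosolic ribosome was not checked. Of 98 tested, 66 were higher and 10 lower, with a median of 0.23, and 4 rose and 1 fell at least 2-fold. Their sum was 19762.7 to 20563.5 TPM in light and 17660.9 to 17714.7 TPM in dark. A ribosomal L27e gene, AT2G32220, had 99.9 ± 1.46 TPM in light and 31.2 ± 3.06 TPM in dark, and AT1G53560, of the L18ae family, fell to 18.7 ± 0.914 TPM in light, against 39.7 ± 1.5 TPM in dark.

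Among 30 cell cycle and DNA repair genes tested, 18 were higher and 4 lower, mostly by little (median 0.29, and 0.13 after quantile normalization, with 11 higher and 5 lower). SMR1 (AT3G10525), an inhibitor of cyclin-dependent kinases, stood at 72.6, 73.6 and 77 TPM in light and 27.3, 30 and 25.4 TPM in dark. TSO2 (AT3G27060), a ribonucleotide reductase subunit that makes DNA precursors, stood at 73.4, 72.3 and 73.2 TPM in light and 31.3, 29.5 and 30.4 TPM in dark (log2 change 1.24, SE 0.037, limma adjusted p = 9.55e-09). CYCD3;1 (AT4G34160), a D-type cyclin of cell division, fell to 9.8 ± 0.55 TPM in light, against 18.2 ± 1.31 TPM in dark.

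Autophagy genes fell. All 23 were tested, 18 were lower, 0 higher and 5 not called, with a median log2 change of -0.56 (-0.69 after quantile normalization). ATG8 proteins coat the membrane that encloses cargo for degradation, and 8 of the 9 ATG8 genes were lower. ATG8E (AT2G45170) stood at 26.8, 21.6 and 23.5 TPM in light and 285, 293 and 282 TPM in dark (log2 change -3.53, SE 0.069, limma adjusted p = 1.12e-09) and ATG8F (AT4G16520) at 42.1, 45 and 41.9 TPM in light and 182, 180 and 197 TPM in dark. The cysteine protease gene AT2G44140, of the family that trims ATG8, fell to 5.09 ± 0.869 TPM in light, against 11.6 ± 1.91 TPM in dark. The summed level was 568, 570 and 576 TPM in light and 1159.1, 1169.2 and 1189.4 TPM in dark.

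Nitrogen genes also fell, with 23 of 30 tested lower and 6 higher, 15 of them at least 2-fold lower and 0 at least 2-fold higher (median -0.95). BT2 (AT3G48360), a BTB and TAZ domain protein that acts in nitrogen use, was the largest fall of all by the rule, at 10.8, 12.1 and 9.6 TPM in light and 218, 231 and 235 TPM in dark (log2 change -4.28, SE 0.074, limma adjusted p = 5.02e-10). Its relative BT1 (AT5G63160) stood at 45.8, 47.7 and 46.1 TPM in light and 347, 353 and 359 TPM in dark. NIA1 (AT1G77760), a nitrate reductase, stood at 150, 140 and 146 TPM in light and 622, 600 and 591 TPM in dark, and ASN1 (AT3G47340), a dark-induced asparagine synthetase, at 76.5, 74.1 and 75 TPM in light and 275, 282 and 262 TPM in dark. HRS1 (AT1G13300), a repressor in nitrate and phosphate signalling, stood at 0.45, 0.647 and 0.749 TPM in light and 22.7, 17.4 and 20.2 TPM in dark. The ammonium transporter AMT1;1 (AT4G13510) rose to 70.1 ± 3.2 TPM in light, against 53.6 ± 1.82 TPM in dark, and the cytosolic glutamine synthetase gene GLN1;2 (AT1G66200) to 253 ± 4.47 TPM in light, against 189 ± 4.54 TPM in dark.

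Genes of starch, sugar and trehalose metabolism moved in both directions, with 14 of 45 tested higher and 21 lower. Of all genes tested 38.4% were higher and 29.3% lower. Enzymes that act on starch were among the rises. BAM3 (AT4G17090), the plastid beta-amylase that releases maltose from starch, stood at 1314.0, 1327.0 and 1322.8 TPM in light and 195, 191 and 201 TPM in dark (log2 change 2.75, SE 0.028, limma adjusted p = 2.53e-11). GBSS1 (AT1G32900), which makes amylose, stood at 107, 111 and 110 TPM in light and 8.44, 8.27 and 8.6 TPM in dark, and GPT2 (AT1G61800), a plastid transporter of glucose 6-phosphate, at 23, 21.4 and 21.8 TPM in light and 1.08, 0.764 and 0.529 TPM in dark. Trehalose phosphate synthase genes of the class without known synthase activity split. TPS8 (AT1G70290) fell to 6.67 ± 0.991 TPM in light, against 71.3 ± 9.16 TPM in dark. TPS9 (AT1G23870) fell to 9.09 ± 0.194 TPM in light, against 80.3 ± 3.86 TPM in dark, and TPS10 (AT1G60140) to 6.97 ± 0.846 TPM in light, against 66.2 ± 4.88 TPM in dark. TPS5 (AT4G17770) stood at 34, 34.3 and 34.7 TPM in light and 4.75, 5.21 and 4.28 TPM in dark. Other large falls lay outside the lists. AT5G14120, a major facilitator transporter, stood at 39.5, 38.6 and 38.1 TPM in light and 689, 667 and 680 TPM in dark. AT2G15960, a stress-induced protein, stood at 48.1, 59.6 and 58.1 TPM in light and 671, 690 and 680 TPM in dark, and AT2G20670, annotated as a DUF506 protein, at 24.8, 24.2 and 26.1 TPM in light and 353, 342 and 355 TPM in dark. AT3G04184 stood at 4.81, 0 and 4.73 TPM in light and 28.7, 38.5 and 33.8 TPM in dark, with light replicate 2 apart from the other light libraries, and its call was lost with a pseudocount of 0.1 (adjusted p = 0.0633).

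**Figure D2:**
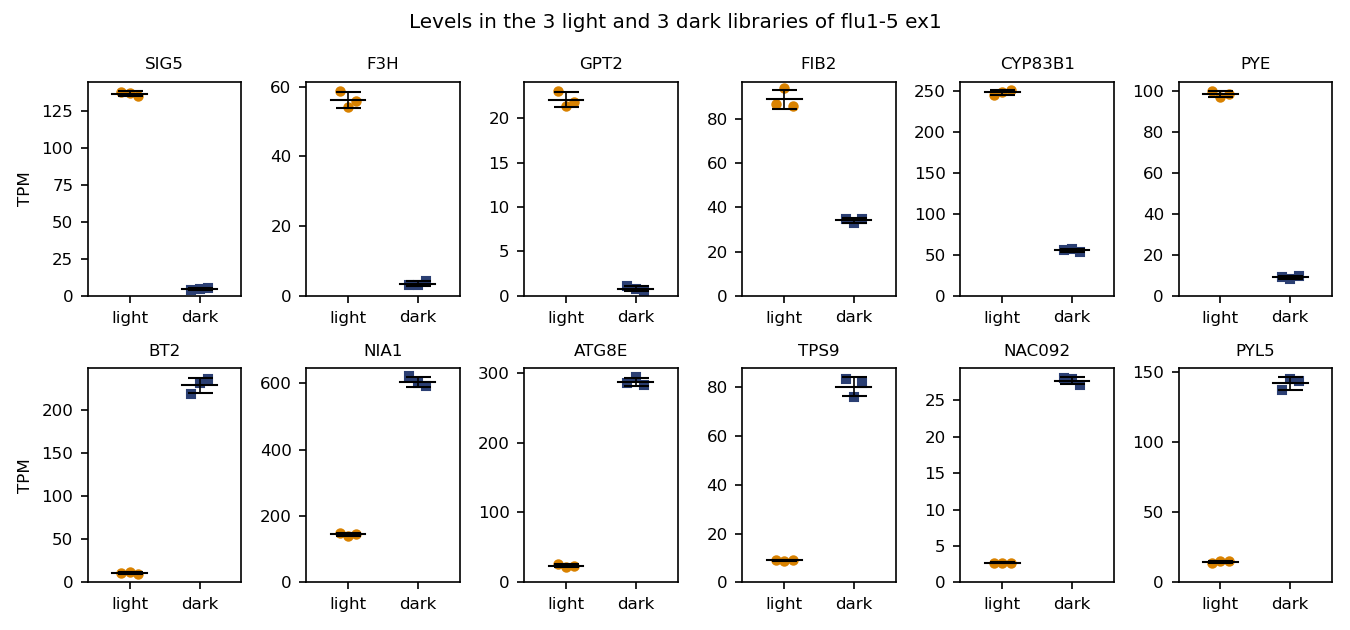
Levels in TPM (vertical axis, from 0, scaled for each gene) of 12 genes in the 3 light libraries (left) and the 3 dark libraries (right) of flu1-5 ex1, with the mean and SD. The upper row shows genes that were higher in light, such as SIG5 with 135 to 138 TPM in light, and the lower row genes that were lower, such as ATG8E with 21.6 to 26.8 TPM in light.

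Abscisic acid is the hormone of water stress, sensed by PYL receptors that inhibit protein phosphatases. Of 29 genes tested in this list 19 were higher and 5 lower, with a median of 1.09. NCED3 (AT3G14440), an enzyme of its synthesis, stood at 4.81, 4.55 and 4.9 TPM in light and 0.828, 0.613 and 0.589 TPM in dark, and CYP707A2 (AT2G29090), an enzyme of its breakdown, at 7.33, 8.59 and 8.72 TPM in light and 0.436, 0.196 and 0.577 TPM in dark. Of the response genes, RD29A (AT5G52310) had 47.7 ± 1.52 TPM in light and 6.48 ± 0.887 TPM in dark and RD22 (AT5G25610) had 275 ± 6.14 TPM in light and 67.1 ± 3.04 TPM in dark. The 3 named falls were receptor genes. PYL5 (AT5G05440) stood at 13.7, 15.2 and 15.2 TPM in light and 137, 145 and 144 TPM in dark (log2 change -3.19, SE 0.05, limma adjusted p = 2.27e-10). PYL6 (AT2G40330) had 5.84 ± 0.328 TPM in light and 22.2 ± 1.55 TPM in dark, and PYL4 (AT2G38310) had 85.1 ± 4.03 TPM in light and 173 ± 9.71 TPM in dark.

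Ethylene genes were mostly lower, with 12 of 17 tested lower, 1 higher and a median of -0.69. ACS7 (AT4G26200), which makes the precursor of ethylene, fell to 2.58 ± 0.238 TPM in light, against 18.3 ± 1.09 TPM in dark, and ACS11 (AT4G08040), of the same family, to 2.62 ± 0.0991 TPM in light, against 13.3 ± 1.39 TPM in dark. The receptor gene ETR2 (AT3G23150) stood at 4.54, 4.7 and 4.34 TPM in light and 20.3, 18.1 and 17.6 TPM in dark (log2 change -1.83, SE 0.074, limma adjusted p = 6.24e-08). ACS6 (AT4G11280) was the member that rose, at 44.1, 45.1 and 46.7 TPM in light and 23.7, 23.3 and 22.5 TPM in dark. In the auxin list 14 of 25 tested were higher and 9 lower, beside 38.4% and 29.3% of all genes tested. PID (AT2G34650), a kinase that directs auxin transport, stood at 10.8, 11.7 and 11.5 TPM in light and 2.66, 2.5 and 2.6 TPM in dark. GH3.6 (AT5G54510), which conjugates auxin to amino acids, fell to 12.3 ± 0.492 TPM in light, against 34 ± 2.34 TPM in dark, and the transporter gene PIN7 (AT1G23080) to 32.2 ± 1.88 TPM in light, against 63.9 ± 4.64 TPM in dark. IAA14 (AT4G14550) stood at 1.54, 2.7 and 1.17 TPM in light and 7.51, 2.72 and 5.01 TPM in dark, and its call (adjusted p = 0.0198) was lost without any of 3 libraries, with adjusted p of 0.0556 and 0.0712 when light replicate 1 or 3 was left out and 0.0607 for dark replicate 3.

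Of 30 genes of gibberellin, brassinosteroid and cytokinin tested, 18 were lower and 10 higher (median -0.28). Enzymes that remove hormone led the rises. CKX4 (AT4G29740), which degrades cytokinin, stood at 11.2, 11.5 and 11.3 TPM in light and 1.49, 1.36 and 1 TPM in dark, and GA2OX2 (AT1G30040), which inactivates gibberellin, at 16.1, 15.2 and 15.6 TPM in light and 2.82, 3.12 and 3.08 TPM in dark. GA20OX2 (AT5G51810), which makes gibberellin, fell to 0.686 ± 0.211 TPM in light, against 3.12 ± 0.124 TPM in dark. CPD (AT5G05690), of brassinosteroid synthesis, fell to 86.6 ± 1.92 TPM in light, against 220 ± 4.13 TPM in dark, and the receptor gene BRI1 (AT4G39400) to 26.4 ± 0.869 TPM in light, against 57.1 ± 1.5 TPM in dark. Cell wall and water channel genes split evenly, with 19 of 43 tested higher and 19 lower, 11 and 12 of them at least 2-fold. Of all genes tested 38.4% were higher and 29.3% lower. XTH24 (AT4G30270), a xyloglucan-modifying enzyme of the wall, stood at 146, 154 and 155 TPM in light and 1755.5, 1756.3 and 1685.2 TPM in dark (log2 change -3.51, SE 0.032, limma adjusted p = 1.65e-11), and XTH31 (AT3G44990), of the same family, at 97, 101 and 108 TPM in light and 5.94, 6.3 and 6.53 TPM in dark. The vacuolar aquaporin gene TIP1;1 (AT2G36830) had 586 ± 3.21 TPM in light and 180 ± 6.22 TPM in dark, and PIP2;3 (AT2G37180), of the plasma membrane, had 182 ± 3.18 TPM in light and 31.4 ± 0.817 TPM in dark. Summed over the list the level was 7446.5 to 7626.2 TPM in light and 9934.8 to 10173.2 TPM in dark.

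**Figure D3:**
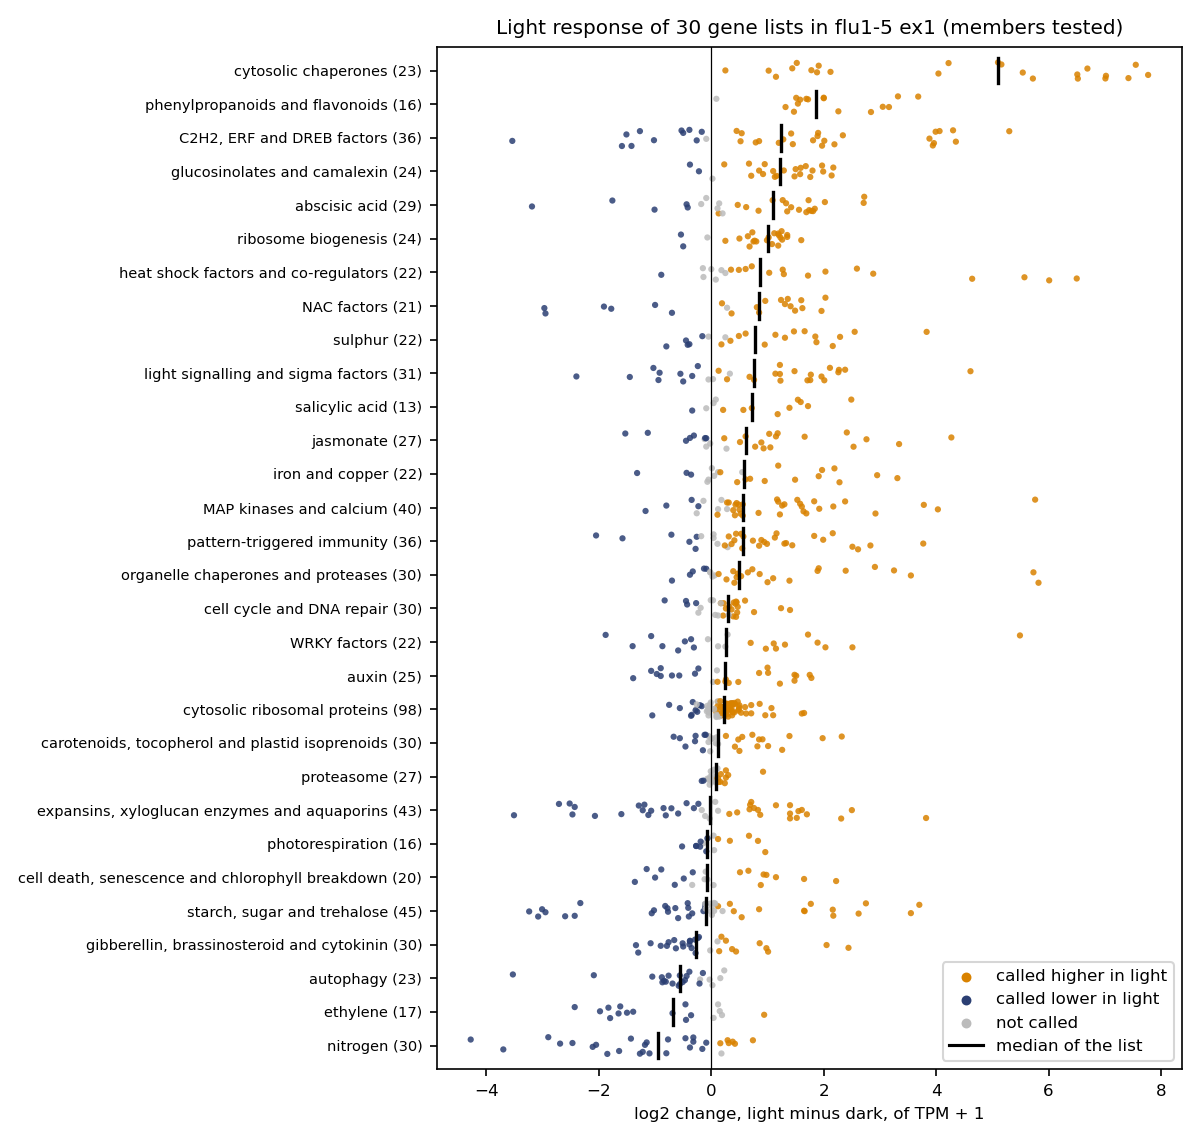
Log2 change (light minus dark, of TPM + 1) of the members tested in 30 gene lists, ordered by median, with members called higher or lower in colour and black ticks for the medians. Medians run from -0.95 for nitrogen to 5.10 for cytosolic chaperones, and most lists hold members on both sides of 0.

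Genes of signalling and defence were mostly higher. Of 40 MAP kinase and calcium genes tested 31 were higher and 4 lower (median 0.56), and of 36 C2H2, ERF and DREB factors 24 were higher and 11 lower (median 1.24). ACA13 (AT3G22910), a calcium pump, stood at 17.1, 17.3 and 16 TPM in light and 0.25, 0.338 and 0.301 TPM in dark (log2 change 3.78, SE 0.088, limma adjusted p = 1.96e-09). AT5G39670, a calcium-binding EF-hand protein, stood at 48.5, 47.8 and 46.9 TPM in light and 6.3, 5.53 and 4.65 TPM in dark. CML41 (AT3G50770), a calmodulin-like protein, fell to 2.98 ± 0.443 TPM in light, against 7.96 ± 1.18 TPM in dark. DREB2A (AT5G05410), a factor of drought and heat responses, stood at 139, 149 and 135 TPM in light and 2.49, 2.66 and 2.66 TPM in dark (log2 change 5.30, SE 0.054, limma adjusted p = 2.63e-11). The zinc finger gene ZAT11 (AT2G37430) stood at 38, 36.1 and 35.3 TPM in light and 0.854, 0.84 and 0.997 TPM in dark and ERF98 (AT3G23230) at 33.1, 35.3 and 31.7 TPM in light and 1.01, 0.493 and 0.596 TPM in dark. ERF105 (AT5G51190) was at 119, 118 and 118 TPM in light and 8.75, 2.35 and 10.2 TPM in dark, with dark replicate 2 below the others. In flu1-1 ex1 ERF105 had a mean of 0 TPM in light and 0 TPM in dark, and the cause was not tested. Its difference between the lines (4.06) is among the positive ones counted for this list below. DREB26 (AT1G21910), of the same superfamily, was among the 15 largest falls, at 4.65, 4.12 and 4.41 TPM in light and 61.7, 62.1 and 61 TPM in dark. ORA59 (AT1G06160), which joins jasmonate and ethylene signals, fell to 3.08 ± 0.723 TPM in light, against 10.5 ± 1.03 TPM in dark.

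Pattern-triggered immunity, the response to microbial molecules sensed at the cell surface, had 25 of 36 tested genes higher and 6 lower. SIB1 (AT3G56710), a partner of sigma factors and WRKY33, stood at 37.7, 37.9 and 38 TPM in light and 1.67, 1.77 and 2.14 TPM in dark (log2 change 3.77, SE 0.077, limma adjusted p = 9.01e-10). BON1 (AT5G61900), a copine at the plasma membrane, stood at 94.8, 83 and 87.8 TPM in light and 10.6, 12 and 12.1 TPM in dark, and PROPEP3 (AT5G64905), the precursor of a danger peptide, at 9.55, 6.07 and 7.21 TPM in light and 0.403, 0.194 and 0.99 TPM in dark. The flagellin receptor gene FLS2 (AT5G46330) fell to 3.49 ± 0.406 TPM in light, against 12.4 ± 1.38 TPM in dark, and the membrane protein gene MLO12 (AT2G39200) to 3.77 ± 0.448 TPM in light, against 18.7 ± 0.684 TPM in dark. For salicylic acid 9 of 13 tested were higher and 1 lower, and 6 of the 19 members, among them PR1, PR2 and FMO1, had a mean under 1 TPM. EDS1 (AT3G48090), an immune signalling protein, had 23 ± 1.4 TPM in light and 7.06 ± 1.49 TPM in dark, and its partner PAD4 (AT3G52430) had 19 ± 0.737 TPM in light and 5.08 ± 0.382 TPM in dark. ICS1 (AT1G74710), the main enzyme of salicylic acid synthesis, fell to 5.49 ± 0.127 TPM in light, against 7.22 ± 0.325 TPM in dark. Of 27 jasmonate genes tested 16 were higher and 7 lower. MYC2 (AT1G32640), the main factor of jasmonate responses, stood at 42.4, 38.5 and 39.3 TPM in light and 5.01, 7.02 and 3.58 TPM in dark, and CYP94C1 (AT2G27690), which oxidizes the active hormone, fell to 0.872 ± 0.0897 TPM in light, against 4.41 ± 0.521 TPM in dark.

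Of 22 WRKY factors tested 10 were higher and 8 lower, shares near the 38.4% and 29.3% of all genes tested. WRKY30 (AT5G24110) stood at 6.99, 8.37 and 7.98 TPM in light and 0.664, 0.354 and 0.607 TPM in dark and WRKY18 (AT4G31800) at 36.6, 36.8 and 32.8 TPM in light and 8.27, 9.65 and 8.54 TPM in dark, while WRKY26 (AT5G07100) fell to 4.37 ± 0.781 TPM in light, against 18.7 ± 0.801 TPM in dark. Of 21 NAC factors 14 were higher and 6 lower. NAC032 (AT1G77450) had 46.2 ± 0.341 TPM in light and 10.6 ± 0.837 TPM in dark. NAC13 (AT1G32870), which acts in signals from mitochondria, had 37.6 ± 2.49 TPM in light and 9.04 ± 2.14 TPM in dark, and ATAF1 (AT1G01720) had 105 ± 2.41 TPM in light and 33.6 ± 0.938 TPM in dark. The senescence regulators NAC092 (AT5G39610) and NAP (AT1G69490) were lower. NAC092 stood at 2.71, 2.6 and 2.71 TPM in light and 28, 27.9 and 27.1 TPM in dark (log2 change -2.97, SE 0.061, limma adjusted p = 9.6e-10), and NAP fell to 1.17 ± 0.115 TPM in light, against 7.2 ± 0.649 TPM in dark. Of 20 genes of cell death, senescence and chlorophyll breakdown tested, 8 were higher and 7 lower, near the 38.4% and 29.3% of all genes tested. CLH1 (AT1G19670), a chlorophyllase, stood at 54.1, 54.9 and 51.3 TPM in light and 10.2, 11.1 and 10.8 TPM in dark, and NYE1 (AT4G22920), which starts chlorophyll breakdown, rose to 23.1 ± 1.22 TPM in light, against 11.2 ± 0.985 TPM in dark. LSD1 (AT4G20380), a negative regulator of cell death, fell to 8.1 ± 0.9 TPM in light, against 19.1 ± 0.866 TPM in dark. SAG21 (AT4G02380), a stress-related protein of mitochondria, lost among the most TPM of all genes, at 504, 483 and 541 TPM in light and 2450.2, 2544.3 and 2314.4 TPM in dark.

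Light signalling genes were mostly higher, with 19 of 31 tested higher and 9 lower. SIG5 (AT5G24120), a nuclear-encoded sigma factor that directs chloroplast transcription, stood at 138, 137 and 135 TPM in light and 4.3, 4.36 and 5.25 TPM in dark (log2 change 4.61, SE 0.067, limma adjusted p = 1.6e-10). HY5 (AT5G11260), the bZIP factor of light responses, stood at 71.1, 68.6 and 71.2 TPM in light and 13.4, 13.7 and 14.7 TPM in dark, RUP2 (AT5G23730), a repressor of the UV-B receptor, at 22.1, 24 and 25 TPM in light and 3.18, 3.72 and 4.41 TPM in dark, and GLK1 (AT2G20570), an activator of chloroplast genes, at 153, 141 and 154 TPM in light and 29.3, 30.1 and 31.2 TPM in dark. PAR1 (AT2G42870), a shade-response regulator, fell to 1.95 ± 0.0831 TPM in light, against 14.6 ± 1.55 TPM in dark, and FHY1 (AT2G37678), which carries phytochrome A to the nucleus, to 6.57 ± 0.644 TPM in light, against 19.7 ± 0.905 TPM in dark. Phenylpropanoid and flavonoid genes, which make sunscreens and antioxidants, had 15 of 16 tested higher, all 15 at least 2-fold, and 0 lower (median 1.86), while 4 of the 20 members were not tested. PAL1 (AT2G37040), the entry enzyme, stood at 116, 116 and 116 TPM in light and 12.4, 12.2 and 11.6 TPM in dark. F3H (AT3G51240), of the flavonoid branch, stood at 58.7, 54.1 and 56 TPM in light and 3.1, 3.1 and 4.3 TPM in dark (log2 change 3.68, SE 0.1, limma adjusted p = 5.48e-09), and MYB111 (AT5G49330), an activator of flavonol genes, at 17.2, 19.8 and 18.4 TPM in light and 1.76, 1.33 and 1.02 TPM in dark.

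Glucosinolate and camalexin genes, of sulphur-rich defence compounds, had 21 of 24 tested higher and 2 lower (median 1.23). CYP83B1 (AT4G31500), of indole glucosinolate synthesis, stood at 246, 249 and 252 TPM in light and 56.5, 57 and 53.6 TPM in dark (log2 change 2.14, SE 0.034, limma adjusted p = 2.43e-10), and its activator MYB34 (AT5G60890) at 38.6, 36.6 and 39.4 TPM in light and 8.45, 7.57 and 7.1 TPM in dark. CYP79B2 (AT4G39950) had 46.3 ± 1.26 TPM in light and 11 ± 0.234 TPM in dark, whereas its close relative CYP79B3 (AT2G22330) fell to 19 ± 0.25 TPM in light, against 22.3 ± 0.659 TPM in dark. For sulphur, 15 of 22 tested were higher and 5 lower. LSU2 (AT5G24660), a marker of sulphur limitation, stood at 63.1, 65.2 and 70.5 TPM in light and 4.6, 2.76 and 3.99 TPM in dark, and APR3 (AT4G21990), which reduces activated sulphate, at 316, 333 and 315 TPM in light and 102, 99.7 and 101 TPM in dark. GSH2 (AT5G27380), the last enzyme of glutathione synthesis, fell to 165 ± 1.96 TPM in light, against 225 ± 3.29 TPM in dark. SULTR1;2 (AT1G78000), a root sulphate transporter, stood at 1.34, 1.04 and 1.59 TPM in light and 3.34, 1.62 and 4.77 TPM in dark, and its call (adjusted p = 0.0262) was lost without any of 4 libraries, with adjusted p of 0.0746 and 0.0684 without dark replicate 1 or 3, and of 0.0624 and 0.0813 without light replicate 1 or 2. For iron and copper, 13 of 22 were higher and 3 lower. PYE (AT3G47640), a factor of the iron deficiency response, had 98.7 ± 1.61 TPM in light and 9.06 ± 0.732 TPM in dark, and BHLH100 (AT2G41240), of the same response, had 9.16 ± 0.683 TPM in light and 0.311 ± 0.0877 TPM in dark. OPT3 (AT4G16370), a transporter that moves iron in the phloem, stood at 264, 260 and 275 TPM in light and 57.5, 57.1 and 58 TPM in dark, and the ferritin gene FER1 (AT5G01600) fell to 223 ± 2.73 TPM in light, against 303 ± 4.23 TPM in dark.

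In the list of carotenoid, tocopherol and plastid isoprenoid genes 14 of 30 tested were higher and 8 lower. These shares were near the 38.4% and 29.3% of all genes tested, and the median of 0.11 became -0.01 after quantile normalization. The list also held FLU, EX1 and EX2, which are not isoprenoid genes, and its counts include them. EX1 was called higher, EX2 (AT1G27510) was called lower and FLU was not called. BCH2 (AT5G52570), a carotene hydroxylase of xanthophyll synthesis, stood at 50.1, 51.1 and 51.9 TPM in light and 8.55, 11.1 and 8.87 TPM in dark, and ZEP (AT5G67030), which makes violaxanthin, rose to 144 ± 1.45 TPM in light, against 59.8 ± 4.3 TPM in dark. VDE (AT1G08550), which reverses that step in strong light, fell to 44.8 ± 4.78 TPM in light, against 61.7 ± 3.35 TPM in dark. PSY (AT5G17230), the entry enzyme of carotenoid synthesis, rose to 152 ± 3.52 TPM in light, against 91.2 ± 3.42 TPM in dark, and VTE2 (AT2G18950), of tocopherol synthesis, to 17.2 ± 1.19 TPM in light, against 11.4 ± 0.476 TPM in dark. VTC2 (AT4G26850), an enzyme of ascorbate synthesis, gained among the most TPM of all genes, at 1064.4, 1058.5 and 1077.7 TPM in light and 59.7, 61.5 and 58.9 TPM in dark. Of 16 photorespiration genes, 5 were higher and 7 lower, beside 38.4% and 29.3% of all genes tested. The median of -0.07 became 0.05 after quantile normalization, with 6 higher and 4 lower. The catalase genes split, with CAT2 (AT4G35090) at 973 ± 11.2 TPM in light, against 610 ± 9.14 TPM in dark, and CAT3 (AT1G20620) at 631 ± 15.1 TPM in light, against 907 ± 36.2 TPM in dark. The 8 largest losses in TPM included photosynthesis genes such as CAB1 (AT1G29930), at 9560.1, 9230.9 and 9624.4 TPM in light and 13375.5, 13526.6 and 13700.4 TPM in dark, and the carbonic anhydrase gene CA2 (AT5G14740), at 1871.9, 1847.4 and 1868.7 TPM in light and 3441.4, 3409.7 and 3384.5 TPM in dark. RBCS1A (AT1G67090), a Rubisco small subunit gene, fell to 16048.9 ± 425 TPM in light, against 17807.2 ± 41.6 TPM in dark, a call that quantile normalization ended (adjusted p = 1), while RBCS1B (AT5G38430) rose to 5726.0 ± 187 TPM in light, against 4677.7 ± 179 TPM in dark. RBCS2B (AT5G38420), of the same family, had 7778.9 ± 115 TPM in light and 8450.2 ± 207 TPM in dark. As for the chaperone genes, reads may be divided between copies.

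Some genes were listed at 0 in all 3 libraries of a condition. In dark this held for 12 genes with at least 1 TPM in each light library, and in light for 2 with at least 1 TPM in each dark library. ABCG40 (AT1G15520), a transporter that imports abscisic acid, stood at 9.19, 10.9 and 8.91 TPM in light and 0, 0 and 0 TPM in dark, and AT1G71000, a DnaJ-domain chaperone, at 96, 91.4 and 96.3 TPM in light and 0, 0 and 0 TPM in dark. CML30 (AT2G15680), a calcium-binding protein, stood at 0, 0 and 0 TPM in light and 15.7, 16 and 13.9 TPM in dark. AGO3 (AT1G31290), an Argonaute protein of small RNA pathways, stood at 0, 0 and 0 TPM in light and 1.33, 2.36 and 2.75 TPM in dark. The table lists 1 transcript per gene, so a 0 can stand for a switch to another transcript, and no fold is given.

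The light response of flu1-5 ex1 was set against that of flu1-1 ex1 by an interaction term over all 12 libraries, for the 17830 genes tested whose tables list the same transcript. FLU itself stood at 15.5 ± 1.46 TPM in light and 14.2 ± 1.21 TPM in dark in flu1-5 ex1, and at 191 ± 1.65 TPM in light and 190 ± 6.33 TPM in dark in flu1-1 ex1. The lines as grouped by the descriptions thus differed in FLU level, although every library carries the same genotype label. Which allele each line carries was not tested. The responses differed for 5273 genes (29.6%), with a positive difference, a more upward response in flu1-5 ex1, for 2012 (11.3%) and a negative one for 3261 (18.3%). Of the genes at least 2-fold higher, 1372 were shared, 78.1% of the 1757 in flu1-5 ex1 and 66.5% of the 2064 in flu1-1 ex1. Of those at least 2-fold lower, 772 were shared, 85.9% of 899 and 66.3% of 1165. Several signalling and defence lists had more positive differences. Among immunity genes 26 of 33 were positive and 1 negative, among C2H2, ERF and DREB factors 27 of 34 and 2, among MAP kinase and calcium genes 26 of 39 and 2, among heat shock factors 14 of 21 and 0, and among salicylic acid genes 8 of 13 and 0. Of cytosolic chaperone genes 11 of 23 were positive and 6 negative, or 12 and 4 after quantile normalization. Of organelle chaperone and protease genes 2 of 30 were positive and 17 negative, or 4 and 17 after quantile normalization. Other lists also had more negative differences. Among ribosome biogenesis genes 0 of 23 were positive and 17 negative, among ribosomal protein genes 1 of 97 and 66, among cell cycle genes 0 of 30 and 17, and among glucosinolate genes 2 of 24 and 15. Not all growth and metabolic lists did so, with 14 of 45 positive and 9 negative for starch, sugar and trehalose, 9 of 30 and 9 for nitrogen, 10 of 43 and 10 for cell wall and water channel genes, and 8 of 30 and 4 for gibberellin, brassinosteroid and cytokinin. After quantile normalization the counts were 26 and 1, 27 and 2, 26 and 0, 14 and 0, and 8 and 0 for the immunity to salicylic acid lists, and 0 and 17, 2 and 58, 0 and 17, and 3 and 13 for the ribosome biogenesis to glucosinolate lists.

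**Figure D4:**
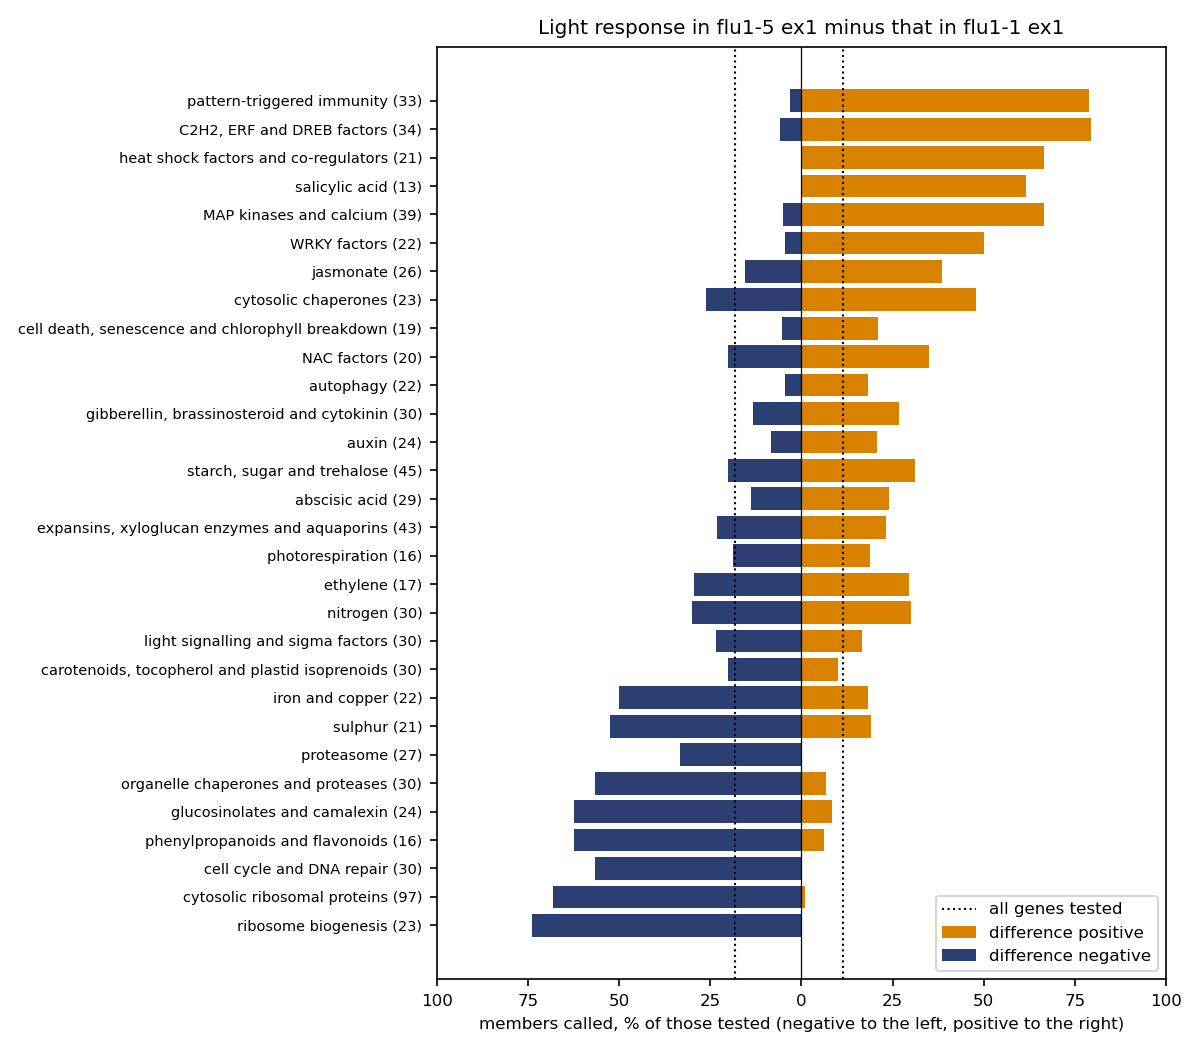
Share of the members tested in each of 30 lists whose light response differed between flu1-5 ex1 and flu1-1 ex1 (horizontal axis, percent), with positive differences to the right and negative ones to the left, and dotted lines at the shares of all genes tested (11.3% and 18.3%). Immunity and C2H2, ERF and DREB lists reach furthest to the right and the ribosome biogenesis list furthest to the left.

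Single genes show the size of these differences. BAG6 stood at 104 ± 4.47 TPM in light and 3.22 ± 0.266 TPM in dark in flu1-5 ex1, and at 20 ± 0.7 TPM in light and 3.78 ± 0.425 TPM in dark in flu1-1 ex1 (difference 2.50, SE 0.1, limma adjusted p = 2.24e-09). DREB2A was at 141 ± 7.33 TPM in light and 2.61 ± 0.0975 TPM in dark in flu1-5 ex1 and at 27.3 ± 1.22 TPM in light and 2.28 ± 0.282 TPM in dark in flu1-1 ex1 (difference 2.19, SE 0.095, limma adjusted p = 3.88e-09). BON1 was at 88.5 ± 5.92 TPM in light and 11.6 ± 0.806 TPM in dark in flu1-5 ex1 and at 10.8 ± 1.51 TPM in light and 8.21 ± 1.56 TPM in dark in flu1-1 ex1 (difference 2.47, SE 0.17, limma adjusted p = 2.62e-07). The upward response of FIB2 was smaller in flu1-5 ex1 than in flu1-1 ex1, where it was at 140 ± 3.61 TPM in light and 26.6 ± 2.1 TPM in dark (difference -1.0, SE 0.075, limma adjusted p = 5.1e-07). MCM3 (AT5G46280), a subunit of the helicase that opens DNA for replication, was at 8.66 ± 0.55 TPM in light and 5.42 ± 1.11 TPM in dark in flu1-5 ex1 and at 17.5 ± 1.83 TPM in light and 4.31 ± 0.846 TPM in dark in flu1-1 ex1 (difference -1.21, SE 0.2, limma adjusted p = 0.000486). LSU2 was at 66.3 ± 3.81 TPM in light and 3.78 ± 0.936 TPM in dark in flu1-5 ex1 and at 164 ± 7.85 TPM in light and 2.42 ± 0.237 TPM in dark in flu1-1 ex1 (difference -1.77, SE 0.16, limma adjusted p = 5.17e-06). Of the genes named by rule, 3 with the same transcript listed were called in opposite directions in the lines and had a called difference. The calmodulin-like gene CML38 (AT1G76650) was at 61.1 ± 7.02 TPM in light and 26.2 ± 3.57 TPM in dark in flu1-5 ex1 and at 3.59 ± 0.334 TPM in light and 10.8 ± 2.28 TPM in dark in flu1-1 ex1 (difference 2.54, SE 0.19, limma adjusted p = 7.15e-07). CYCD3;1 was at 9.8 ± 0.55 TPM in light and 18.2 ± 1.31 TPM in dark in flu1-5 ex1 and at 21.1 ± 0.654 TPM in light and 18.2 ± 0.399 TPM in dark in flu1-1 ex1 (difference -1.03, SE 0.083, limma adjusted p = 1.07e-06). AMT1;1 was at 70.1 ± 3.2 TPM in light and 53.6 ± 1.82 TPM in dark in flu1-5 ex1 and at 40.6 ± 0.679 TPM in light and 60.1 ± 1.09 TPM in dark in flu1-1 ex1 (difference 0.94, SE 0.055, limma adjusted p = 5.55e-08). SULTR1;2, listed with another transcript in each line and so left out of the interaction test, was called lower in flu1-5 ex1 and was at 3.86 ± 0.516 TPM in light and 1.02 ± 0.456 TPM in dark in flu1-1 ex1 (limma adjusted p = 0.00013). Responses without a called difference included those of SIG5 (difference -0.17, SE 0.082, limma adjusted p = 0.146), ATG8E (difference 0.22, SE 0.086, limma adjusted p = 0.0723) and XTH24 (difference -0.13, SE 0.054, limma adjusted p = 0.0852), which a p above the threshold does not show to be equal.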

How the data were processed

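Transcript levels of seedlings, as the samples are labelled, were measured by RNA-seq. The authors deposited 1 table per line with TPM for 3 dark and 3 light libraries and 1 transcript per gene, and per the file headers each replicate held about 100 seedlings. The submitters' processing notes name kallisto 0.46.2, sleuth 0.30.0 and TAIR10, with no settings. The deposited fold changes and p-values were not used. The members and lists were chosen with earlier results of these data known. TPM keeps no depth, so no interval from read counts is given. Levels were analysed as log2(TPM + 1) with limma 3.58.1 in R 4.3.3 (trend and robust variance, two-sided, Benjamini-Hochberg over genes whose mean over the libraries fitted reached 1 TPM, adjusted p under 0.05), so fold changes of low genes are understated. The difference between lines used an interaction over 12 libraries, leaving out 971 genes listed with another transcript. In data simulated for light against dark in flu1-5 ex1, 200 of 18145 genes were changed, and 70.1% of 1.5-fold, 89.6% of 2-fold and 97% of 4-fold changes were recovered. There 6 unchanged genes were called. In the real data 12297 genes were called, far more than were changed in the simulation, so its rates may not hold for them.

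Genes were named as the 15 largest rises and falls among called genes at or above the median level, the 8 largest gains and losses in TPM, up to 8 genes listed at 0 in 1 condition, up to 4 rises and 3 falls of each of 30 lists, and a fixed set of genes such as FLU, HY5 and CML38. HOP1 and the marker genes were added outside this rule, after their values were seen. The lists held 953 members, of which 872 were tested and 81 had a mean under 1 TPM. Of those tested, 496 were higher, 233 lower and 143 not called. Alternatives were quantile normalization, other pseudocounts and filters, a stricter threshold, a replicate block and each library left out.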

Additional observations from a re-analysis of the deposited data

Results flagged for a closer look

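Among the genes with the 15 largest rises and falls, the fixed genes and those called in opposite directions (same transcript listed in both lines), the interaction test found a light response that differed between the lines for 37, leaving out genes listed at 0 in all 3 libraries of any group. Each value is the log2 response in flu1-5 ex1 minus that in flu1-1 ex1, on the TPM + 1 scale, which also moves with low dark levels. Among the 15 largest rises the difference was 0.78 for HSP70, 2.68 for HSP17.6A, 1.23 for AT1G07400, 1.68 for HSP17.6II, 0.73 for HSP90.1, 1.66 for AT1G59860 and 2.10 for DIP2. It was 2.48 for HSP17.4, 3.03 for AT1G47130, 1.19 for HSP101, 2.97 for AT1G53540, 2.53 for AT5G54165 and 0.99 for ROF2. Over the whole list of 23 cytosolic chaperone genes, 11 had a positive and 6 a negative called difference.

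Among the largest falls a positive difference is a smaller fall in flu1-5 ex1. It was 0.78 for AT5G14120, 1.22 for AT3G15450, 1.17 for AT3G20395 and 1.29 for MIOX2. Negative differences, larger falls in flu1-5 ex1, were -0.71 for BT2, -1.09 for AT2G20670, -0.44 for AT2G15960, -1.09 for AT1G80440 and -1.06 for DREB26.

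Among the genes named whatever their result, the difference was 0.48 for EX1, 0.88 for MBF1C, 2.50 for BAG6, 2.19 for DREB2A, 1.67 for ERF109, 0.47 for NCED3, 0.58 for ASN1 and 0.43 for NIA1. It was -0.52 for HY5, -0.39 for PSY, -0.14 for CAT2 and -1.19 for APR3. The genes called in opposite directions had 2.54 for CML38, -1.03 for CYCD3;1 and 0.94 for AMT1;1. Of the 37 differences 27 were positive and 10 negative. Most of these genes were chosen for large changes in flu1-5 ex1, which favours positive differences among the rises, and over all genes tested 11.3% were positive and 18.3% negative.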

How the results depend on the processing

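The pseudocount set how many genes passed 2-fold. With a pseudocount of 5, 1679 genes were called and changed at least 2-fold instead of 2732, with 1121 higher and 558 lower. At an adjusted p under 0.01 the light response differed between the lines for 3308 genes instead of 5273. The other settings kept the summary counts within 1.5 times. Leaving out each library in turn gave 11563 to 11724 genes called and 4686 to 4985 genes with a difference between the lines. With the replicate number as a block, 11956 genes were called (6802 higher and 5154 lower), 2734 at least 2-fold, and 4836 differed between the lines. Same-numbered light and dark libraries did not deviate together (r = 0.0137, -0.044 and -0.0058), so the numbers were not taken as pairs. FLU, not called, changed sign after quantile normalization (-0.01). Of the 240 named genes called, 4 lost the call in some setting. They were AT3G04184, RBCS1A, IAA14 and SULTR1;2, and the cause was not tested. Depth is unknown, and levels under 1 TPM are the least certain.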
